A study of Homo sapiens with 6 samples.

Results

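The genes described here encode 10 enzymes that make serine, asparagine and one-carbon units, or that link these routes to the mitochondria. They were taken by gene name from a table of 58174 genes, and each of ASNS, PHGDH, PSAT1, PSPH, SHMT1, SHMT2, MTHFD2, MTHFD1L, ALDH1L2 and PCK2 had a single row. RNA was sequenced from PC9, an established cell line from a human lung adenocarcinoma. In 3 libraries the cells had received an antagomir, a modified antisense oligonucleotide, against tsRNA-5001a, a small RNA derived from a transfer RNA (knockdown libraries 1 to 3). In the other 3 libraries they had received a negative control antagomir (control libraries 1 to 3). The level of tsRNA-5001a was not examined here, so knockdown names the treatment and not a measured fall. The labels give no dose and no time of treatment. Separate cultures are not stated either, so the p-values reflect variation among these libraries and that variation may be technical.

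Serine is made from a glycolytic intermediate by PHGDH, PSAT1 and PSPH acting in that order. Serine hydroxymethyltransferases then pass a carbon from serine to folate, SHMT1 in the cytosol and SHMT2 in mitochondria, and further folate enzymes turn that carbon into formate for nucleotide synthesis. ASNS makes asparagine from aspartate and glutamine. Transcription of many of these genes is known to be raised by ATF4, the transcription factor of the amino acid and stress response.

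Libraries held 32342017 to 40066223 gene counts. The epithelial markers KRT8, KRT18, KRT19, EPCAM and CDH1 and the receptor gene EGFR each had at least 6618 counts in every library. NKX2-1, a lung lineage factor, had only 24 to 34 counts in knockdown libraries and 0 to 12 in control libraries. MALAT1, a nuclear noncoding RNA, was at 258.7 CPM (counts scaled to the size of the library) in knockdown library 2, against 65.2 to 99.7 CPM in the other 5 libraries. Of 12 markers of blood, endothelial, stromal and liver cells, LUM was at 0 throughout and CD3E and COL1A2 had at most 2 counts. The stromal collagen gene COL1A1 had 1204 to 2034 counts in knockdown libraries and 1261 to 1696 in control libraries. Of the endothelial markers, CDH5 had 594 to 1228 counts in knockdown libraries and 372 to 1032 in control libraries, and PECAM1 had 450 to 487 in knockdown libraries and 293 to 416 in control libraries. CD14, a monocyte marker, had 139 to 177 counts in knockdown libraries and 105 to 124 in control libraries. All 7 markers of this list that were tested had a fold change above 0, as did 55.9% of all genes tested. Of the 7, 4 were higher without overlap, where 13.4% of all genes were. The median of the 7 on the log2 scale was 0.32. The summed level of these 12 was 77.0 to 100.6 CPM in knockdown libraries and 64.9 to 88.0 CPM in control libraries. PDGFRB, a stromal receptor gene, was the single member of this list past the test, with a log2 fold change of 2.92. The part of these markers and of MALAT1 in the results below was not tested.

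ASNS was the only member past the test: its transcript was 1.81-fold higher after knockdown, a call made in 8 of 16 settings. In bulk RNA, more cells expressing a gene and more RNA per cell cannot be told apart. The other 9 genes did not pass the test, among them the whole serine branch and the mitochondrial folate enzymes. All 10 genes passed the filter on low counts. With edgeR's quasi-likelihood test and Benjamini-Hochberg adjustment over 19040 genes, 1 of the 10 had an adjusted p under 0.05, and that one was higher. In the same comparison 223 genes passed, which is 1.17% of those tested, or 1.10% higher and 0.0735% lower. At an unadjusted p under 0.05 there were 2 of the 10, ASNS and SHMT1, against 16.5% of all genes. The median log2 fold change of the 10 was -0.07, beside 0.05 for all genes tested. Of the 10, 3 had a fold change above 0 and 7 below.

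**Figure D1:**
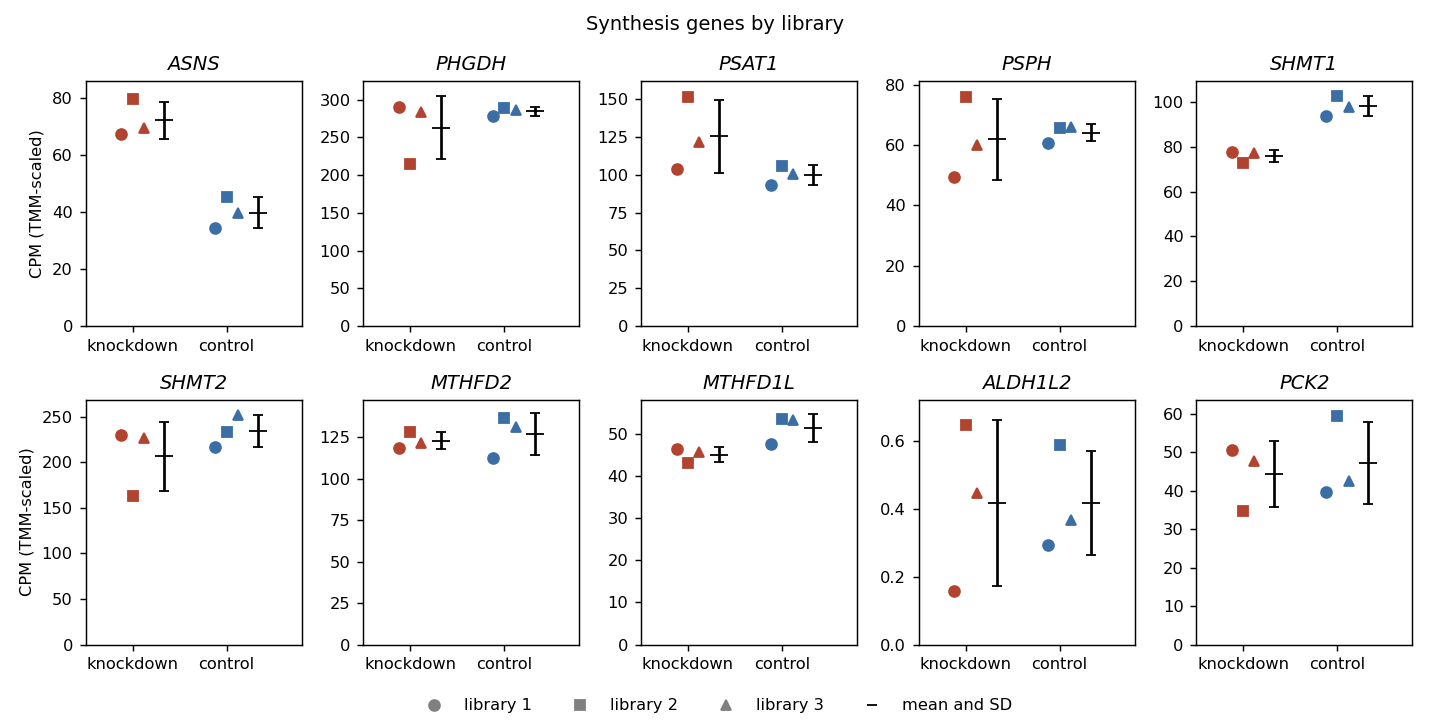
CPM of each synthesis gene (vertical axis, from 0) in the 3 knockdown and the 3 control libraries, with the mean and SD of each group and a marker shape for the library number. The groups are apart for ASNS, which is higher after knockdown, and for SHMT1 and MTHFD1L, which are lower, and they overlap for the other 7 genes.

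ASNS (ENSG00000070669; chromosome 7, 97852118 to 97872542, minus strand) had 67.6, 79.7 and 69.5 CPM in knockdown libraries 1 to 3, against 34.4, 45.4 and 39.7 CPM in control libraries 1 to 3. The lowest knockdown library was above the highest control library. On the log2 scale the difference was 0.86 (SE 0.15; 95% interval 0.53 to 1.19; edgeR adjusted p 0.0367). The call was lost when any library was left out, knockdown or control, with log2 fold changes of 0.76 to 0.96 and edgeR adjusted p of 0.0685 to 0.143. Of 16 settings tried, 8 placed ASNS past the test, and the fold change was above 0 in 16. The annotation places another transcript of the same strand, AC079781.5, across 1985 bases of ASNS exons, so reads there could belong to either. No counts of AC079781.5 were available, and its part in the ASNS counts was not tested.

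The ASNS promoter holds a well-known amino acid response element that ATF4 binds. The core of such elements, TGATGNAA, was searched on both strands of the 250 bases before and 50 after each RefSeq start on GRCh38.p14. Of the 10 genes 7 have starts in that table, namely all but PSPH, SHMT2 and ALDH1L2, and the core stood near a start of 2 of them, ASNS and MTHFD1L. It stood in 3.62% of all 35116 windows, and 4.46% of 27305 genes had it near at least 1 start. The following windows show the ASNS and MTHFD1L matches, and those of ATF3 and CHAC1, stress response genes that also rose. The core was found for 9 of 26 other ATF4 response genes in the promoter table, and 7 of these did not pass the test. Of the 5 that rose, ATF3 and CHAC1 had the core, while ADM2, PPP1R15A and STC2 did not. Each window reads 5′ to 3′ on the gene's strand with the match in capitals.
ASNS (chr7:97872458-97872487, minus strand, match 68 bases before a start): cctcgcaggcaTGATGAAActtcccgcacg
MTHFD1L (chr6:150866346-150866375, plus strand): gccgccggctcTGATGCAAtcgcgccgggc
ATF3 (chr1:212565205-212565234, plus strand): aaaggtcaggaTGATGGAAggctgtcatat
CHAC1 (chr15:40953251-40953280, plus strand, match on the opposite strand): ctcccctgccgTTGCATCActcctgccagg

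MTHFD1L has 4 starts in the table, and its match lies before 2 of them and 24 bases after the third. ASNS and MTHFD1L both had the core. ASNS was higher after knockdown, and MTHFD1L had a log2 fold change of -0.19 that did not pass. A match of these letters is a description of the sequence. Binding was not measured, and a link of the core to the fold changes was not tested.

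PHGDH, the dehydrogenase that opens the branch (ENSG00000092621; chromosome 1, 119659798 to 119744215, plus strand), had 290.8, 215 and 283 CPM in knockdown libraries and 278, 289 and 286 CPM in control libraries. Knockdown library 2 was below all others, and the other knockdown libraries were within or just above the control range. The log2 fold change was -0.11 (95% interval -0.42 to 0.20; edgeR adjusted p 0.720). PSAT1, the aminotransferase of the middle step (ENSG00000135069; chromosome 9, 78297143 to 78330093, plus strand), had 104, 151 and 121 CPM in knockdown libraries and 93.3, 106 and 100.2 CPM in control libraries. Knockdown libraries 2 and 3 were above all controls, while knockdown library 1 was below control library 2. Its log2 fold change of 0.33 (95% interval -0.02 to 0.68) had an edgeR adjusted p of 0.330 and was above 0 in 16 of 16 settings. Without knockdown library 2 it was 0.16 (edgeR adjusted p 0.490). PSPH, the phosphatase of the last step (ENSG00000146733; chromosome 7, 56011051 to 56051604, minus strand), had 49.5, 76.1 and 60.1 CPM in knockdown libraries, against 60.8, 65.8 and 65.9 CPM in control libraries. Both its highest and its lowest value came from knockdown libraries, and its log2 fold change was -0.05 (95% interval -0.43 to 0.33; edgeR adjusted p 0.904).

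Within the knockdown group the steps of the branch differed most in knockdown library 2, the library with the high MALAT1. Relative to the control mean, knockdown library 2 was lower by a log2 difference of -0.40 for PHGDH, and higher by 0.60 for PSAT1 and 0.25 for PSPH. Knockdown library 1 differed by 0.03 for PHGDH, 0.06 for PSAT1 and -0.37 for PSPH. The log2 ratio of PSAT1 to PHGDH CPM, chosen after the values were seen, was higher by 0.44 in knockdown libraries (exact permutation test, two-sided, p = 0.2, adjusted p 0.25 over 5 ratios; n = 3 each). In deposited TPM it was higher by 0.47 (exact permutation p = 0.3), and PSPH over PHGDH was higher by 0.31 (exact permutation p = 0.7). In CPM the ratio of PSAT1 to PHGDH was higher by 0.16 without knockdown library 2. The ratio of PSPH to PHGDH in CPM, chosen likewise, was higher by 0.05 on the log2 scale (exact permutation p = 1.0). It was lower by a log2 difference of -0.25 without that library.

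**Figure D2:**
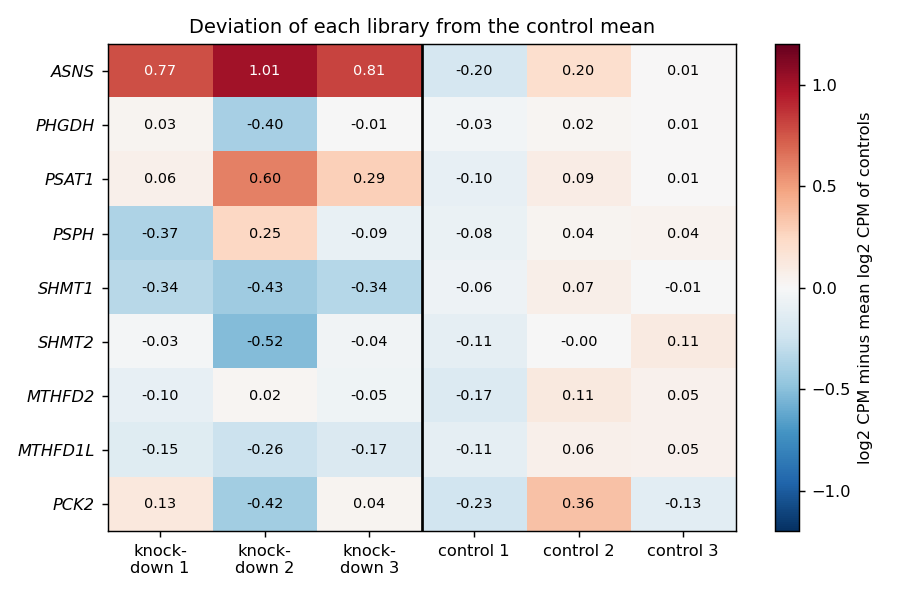
Log2 CPM of each library minus the mean log2 CPM of the controls, for 9 synthesis genes (rows; ALDH1L2, with few counts, is left out) in the knockdown and then the control libraries (columns). ASNS is above the control mean by 0.77 to 1.01 in the knockdown libraries, SHMT1 is below it in these, and knockdown library 2 has PHGDH, SHMT2 and PCK2 low with PSAT1 high.

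SHMT1, the cytosolic hydroxymethyltransferase (ENSG00000176974; chromosome 17, 18327860 to 18363563, minus strand), had 77.7, 72.9 and 77.4 CPM in knockdown libraries, against 93.9, 103 and 97.7 CPM in control libraries. The groups did not overlap, and the knockdown libraries lay close together. The log2 fold change was -0.37 with a 95% interval of -0.62 to -0.12, and the edgeR adjusted p of 0.174 did not pass. The sign was the same in 16 of 16 settings. SHMT1 exons share 196 bases with SMCR8 on the opposite strand, and the use of strand in counting is not stated. ALDH1L2 exons share 145 bases with C12orf45 and MTHFD2 exons 1324 bases with SLC4A5, both on the opposite strand, and SHMT2 and MTHFD2 share exon bases with further genes on that strand. C12orf45 had 594 to 791 counts in knockdown libraries and 567 to 776 in control libraries, far above those of ALDH1L2, and SLC4A5 had 52 to 112 in knockdown libraries and 86 to 164 in control libraries. SMCR8 had 2826 to 3573 counts in knockdown libraries and 1676 to 2796 in control libraries, and the part of these genes in the counts of their partners was not tested.

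SHMT2, the mitochondrial hydroxymethyltransferase (ENSG00000182199; chromosome 12, 57229327 to 57234935, plus strand), had 229.7, 163 and 227 CPM in knockdown libraries and 217, 234 and 252 CPM in control libraries. Knockdown library 2 was the lowest and the groups overlapped (log2 fold change -0.18, 95% interval -0.53 to 0.17, edgeR adjusted p 0.594). MTHFD2, a mitochondrial dehydrogenase and cyclohydrolase that is abundant in many tumours (ENSG00000065911; chromosome 2, 74198562 to 74217565, plus strand), had 118, 128 and 122 CPM in knockdown libraries, against 113, 137 and 131 CPM in control libraries. All 3 knockdown values lay inside the control range. The log2 fold change was -0.05 (95% interval -0.32 to 0.23, edgeR adjusted p 0.879).

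MTHFD1L, the mitochondrial synthetase that releases formate (ENSG00000120254; chromosome 6, 150865549 to 151101887, plus strand), had 46.4, 42.9 and 45.6 CPM in knockdown libraries and 47.5, 53.4 and 53.2 CPM in control libraries. The knockdown libraries were below all controls, with a gap to control library 1 smaller than the range within the knockdown group (log2 fold change -0.19, 95% interval -0.47 to 0.08, edgeR adjusted p 0.468). Of the 10 genes, 1 was thus higher without overlap and 2 lower, where 13.4% and 10.8% of all genes were. ALDH1L2, the mitochondrial formyltetrahydrofolate dehydrogenase (ENSG00000136010; chromosome 12, 105019784 to 105084577, minus strand), was close to the limit of detection, at 6, 22 and 19 counts in knockdown libraries and 11, 19 and 14 in control libraries. At this depth its 95% interval of -1.28 to 1.29 on the log2 scale holds rises and falls larger than the rise of ASNS.

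PCK2, the mitochondrial phosphoenolpyruvate carboxykinase, which can feed carbon into the serine branch (ENSG00000100889; chromosome 14, 24094053 to 24110598, plus strand), had 50.7, 34.7 and 47.6 CPM in knockdown libraries. In control libraries it had 39.7, 59.4 and 42.4 CPM. The groups overlapped widely, with the lowest value in knockdown library 2 and the highest in control library 2 (log2 fold change -0.09, 95% interval -0.55 to 0.38, edgeR adjusted p 0.861). The cytosolic partner PCK1 had at most 4 counts in any library.

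**Figure D3:**
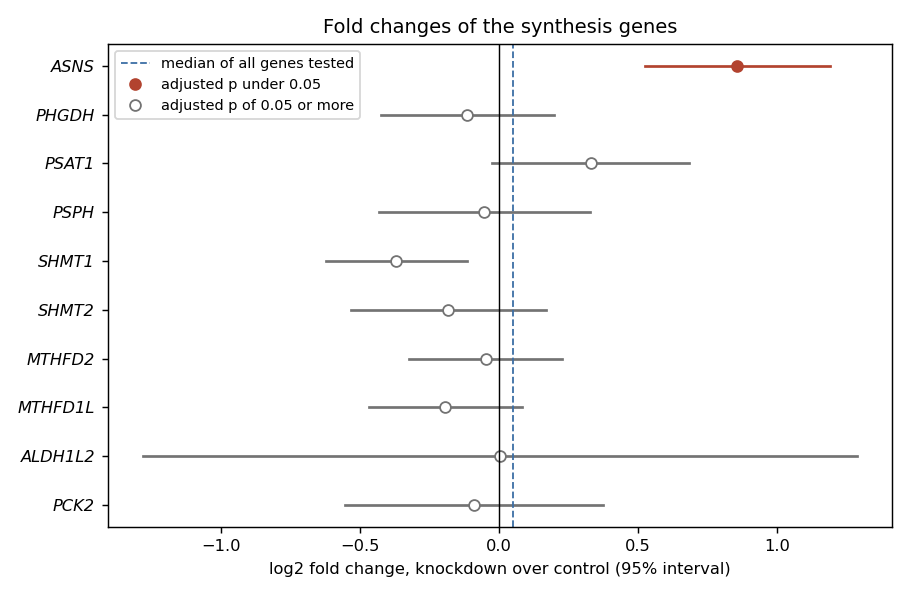
Log2 fold change of knockdown over control for the 10 synthesis genes (points) with 95% intervals (lines), from edgeR; the dashed line is the median of all genes tested, 0.05. ASNS is past the adjusted threshold at 0.86, SHMT1 has an interval below 0 without passing it, and the remaining intervals include 0.

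Levels between genes were set side by side in the deposited TPM, a unit that the authors scaled by transcript length and library. In knockdown libraries SHMT2 was the most abundant at 231 ± 34.2 TPM (SD, n = 3), followed by PHGDH at 195 ± 34.4, PSAT1 at 127 ± 17.5 and PSPH at 93.8 ± 28.0 TPM. ASNS came next at 81.0 ± 9.20 TPM, then SHMT1 at 73.6 ± 4.62, MTHFD2 at 65.9 ± 1.11 and PCK2 at 56.6 ± 12.2 TPM. MTHFD1L was at 34.9 ± 2.65 TPM and ALDH1L2 at 0.119 ± 0.073 TPM. In control libraries the order began with SHMT2 at 225 ± 23.2 TPM, PHGDH at 181 ± 14.8 and PSAT1 at 86.4 ± 11.7 TPM. SHMT1 followed at 81.4 ± 2.66 TPM, then PSPH at 68.9 ± 3.75, MTHFD2 at 58.7 ± 8.47 and PCK2 at 47.0 ± 8.67 TPM. ASNS came after these at 38.9 ± 2.98 TPM, before MTHFD1L at 34.1 ± 4.11 and ALDH1L2 at 0.116 ± 0.034 TPM.

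ASNS thus ranked 5 of the 10 in knockdown libraries and 8 in control libraries. In knockdown libraries the values of neighbours in the order overlapped for SHMT2 and PHGDH, for the run of PSAT1, PSPH, ASNS and SHMT1, and for MTHFD2 and PCK2. In control libraries they overlapped for PSAT1 and SHMT1 and for the run of MTHFD2, PCK2, ASNS and MTHFD1L. All other neighbours in each order were apart. The TPM are not the counts divided by a fixed length. After the typical TPM per count of each library was divided out, TPM per count still differed between libraries. The difference was 1.15-fold at the median of 12156 genes, 1.08-fold for ASNS, 1.28-fold for PSAT1 and PSPH and 1.87-fold for PCK2. With limma on deposited TPM the median log2 fold change of all genes was 0.27. There PSPH was at 0.40 and PSAT1 at 0.56, against -0.05 and 0.33 from counts, and neither passed.

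Mitochondrial and cytosolic partners were compared as a ratio within each library, which needs no scaling between libraries but depends on how the TPM were estimated. MTHFD1, the cytosolic enzyme whose activities MTHFD2 and MTHFD1L divide between them in mitochondria, had 115, 108 and 121 CPM in knockdown libraries and 161, 162 and 171 CPM in control libraries. These groups did not overlap, but the log2 fold change of -0.52 did not pass (edgeR adjusted p 0.0706). The log2 TPM ratio of MTHFD2 to MTHFD1 was 0.04, -0.22 and -0.32 in knockdown libraries and -0.89, -0.46 and -0.58 in control libraries. The mean difference was 0.48. In CPM the ratio in knockdown library 2 was 0.24, and the mean difference was also 0.48. For MTHFD1L over MTHFD1 the ratio was -0.95, -1.17 and -1.14 in knockdown libraries and -1.34, -1.56 and -1.36 in control libraries, a mean difference of 0.34.

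Both ratios were higher in every knockdown library than in any control library. They share MTHFD1 as denominator and are not independent. The two-sided exact permutation p was 0.1 for each (adjusted p 0.25 over 5 ratios; n = 3 each), the smallest that 3 against 3 libraries can give. SHMT2 over SHMT1 was 1.75, 1.46 and 1.70 in knockdown libraries and 1.42, 1.37 and 1.60 in control libraries on the log2 scale. Here the groups overlapped, with a mean difference of 0.17 (exact permutation p = 0.2, adjusted p 0.25; n = 3 each). In CPM the mean difference was also 0.17 (exact permutation p = 0.4). Ratios for ALDH1L2 and PCK2 were not taken, since ALDH1L2 and PCK1 had under 10 counts in at least 1 library. ALDH1L1, the cytosolic partner of ALDH1L2, had 152, 153 and 233 counts in knockdown libraries and 204, 198 and 217 in control libraries.

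**Figure D4:**
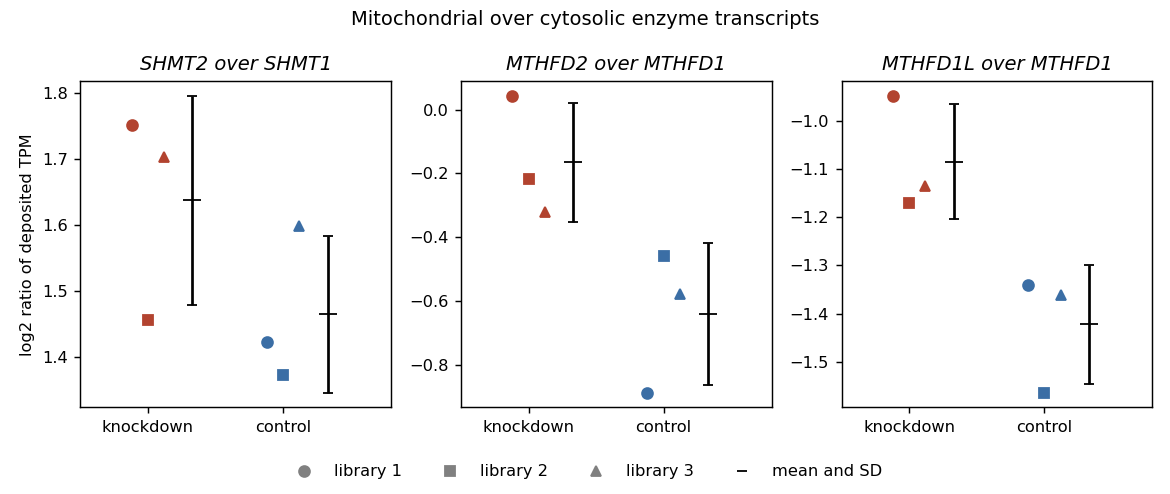
Log2 ratio of deposited TPM of a mitochondrial enzyme gene over its cytosolic partner, per knockdown and control library, with the mean and SD of each group. MTHFD2 and MTHFD1L over MTHFD1 are higher in the 3 knockdown libraries than in the 3 control libraries, and SHMT2 over SHMT1 overlaps between the groups.

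Genes on either side of these routes were read from 3 lists of metabolic partners. In the list of serine and glycine partners 0 of 15 tested genes passed with edgeR, where 1.17% of all genes passed. At an unadjusted p under 0.05 there were 3 of the 15, against 16.5% of all genes. Without overlap 1 of the 15 was higher and 5 were lower, where 13.4% and 10.8% of all genes were. The median log2 fold change was -0.03. CTH, which makes cysteine from cystathionine, had 7.16, 8.45 and 7.07 CPM in knockdown libraries and 4.89, 4.71 and 5.39 CPM in control libraries. Its groups did not overlap, and its difference of 0.60 on the log2 scale did not pass (edgeR adjusted p 0.165). SLC25A39, a mitochondrial glutathione carrier, differed by -0.38 on that scale (edgeR adjusted p 0.316). Among partners of asparagine, aspartate, glutamine and proline metabolism 0 of 20 passed and 1 was at an unadjusted p under 0.05. The shares of all genes were again 1.17% and 16.5%, and the list median was -0.06. Of the 20, 0 were higher without overlap and 3 lower, beside 13.4% and 10.8% of all genes. There SLC1A3, an aspartate and glutamate transporter, differed by 0.32 on that scale (edgeR adjusted p 0.387). GOT2, the mitochondrial aspartate aminotransferase, had -0.25 (edgeR adjusted p 0.275).

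Of 21 folate partners, 0 rose and 1 fell, where 1.10% of all genes rose and 0.0735% fell. At an unadjusted p under 0.05 there were 4 of the 21, against 16.5% of all genes. Without overlap 0 of the 21 were higher and 6 lower, where 13.4% and 10.8% of all genes were. The median log2 fold change was -0.10. The gene that fell was TYMS, thymidylate synthase, which uses a folate-bound carbon to make thymidylate. It had 29.7, 26.3 and 29.3 CPM in knockdown libraries and 45.3, 50.2 and 46.9 CPM in control libraries, with no overlap. On the log2 scale the difference was -0.74 (95% interval -1.03 to -0.45; edgeR adjusted p 0.0367). When any of the 6 libraries was left out, TYMS lost its call and 0 of 21 folate partners passed. The count was also 0 with library size only, without a filter, with the stricter filter, with the replicate block and on deposited TPM, and it was 2 with DESeq2.

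Among 35 other genes of the ATF4 stress response, 5 rose and 0 fell, where 1.10% of all genes rose and 0.0735% fell. At an unadjusted p under 0.05 there were 19 of the 35, against 16.5% of all genes. Without overlap 19 were higher and 1 lower, where 13.4% and 10.8% of all genes were. The median log2 fold change was 0.36, and 29 of the 35 had a fold change above 0, against 10649 of all 19040 genes (55.9%). This list was drawn up with results of these data known and is not independent evidence. ATF3, a stress-induced transcription factor, and CHAC1, which breaks down glutathione, rose by log2 fold changes of 2.64 each (edgeR adjusted p 0.00411 and 0.00973). ADM2, a secreted peptide hormone, rose by 0.85, PPP1R15A, a subunit of the phosphatase that ends the response, by 0.83, and STC2, a secreted glycoprotein, by 0.58 (edgeR adjusted p 0.0399, 0.0174 and 0.0488). The count of 5 was 2 without knockdown library 1 or 3 or control library 2 or 3, and 3 without knockdown library 2 or control library 1. ATF4 itself, named after its values were seen, had 741.9, 624 and 666 CPM in knockdown libraries and 813, 883 and 793 CPM in control libraries. Its groups did not overlap, and 10.8% of all genes were likewise lower without overlap. The log2 fold change of ATF4, -0.29, did not pass (edgeR adjusted p 0.242). These are RNA levels, and ATF4 protein was not measured.

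**Figure D5:**
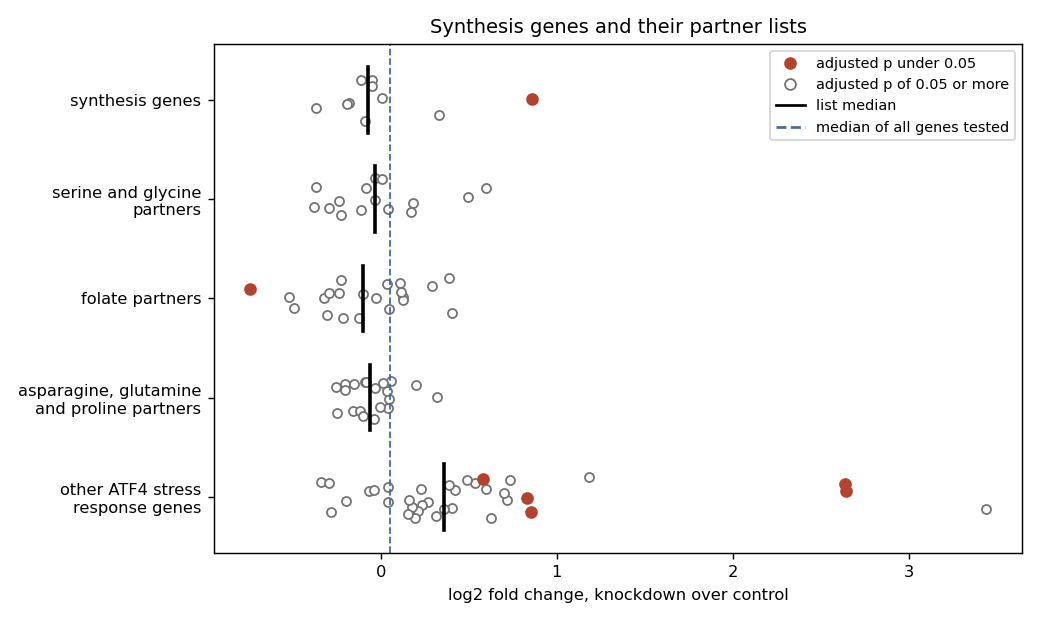
Log2 fold change of each tested gene (points, jittered vertically) in the synthesis genes and the 4 partner lists, with the list median (black bar) and the median of all genes tested (dashed line). Filled points passed the adjusted threshold: ASNS, TYMS on the negative side, and 5 of 35 other ATF4 response genes.

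The gene whose log2 CPM followed ASNS most closely over the 6 libraries, among 10832 genes of at least 3 log2 CPM, was FAM46C, with a Pearson correlation of 0.99. It had 27.7, 32.1 and 30.8 CPM in knockdown libraries and 15.4, 18.7 and 17.4 CPM in control libraries. SELENOS, HSPB8, LINC01232 and CHSY1 came next, each at 0.99. These correlations describe 6 libraries in 2 groups and share their depth and group difference. Reads of ASNS and its relatives could in principle be divided with pseudogene copies. The 17 pseudogenes named after these enzymes had at most 4 counts in any library, and 10 of them had 0 throughout. How reads matching several places were counted is not stated, so a loss of reads to copies was not tested.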

How the data were processed

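RNA of 3 knockdown and 3 control libraries of PC9 cells was sequenced on an Illumina platform, quality controlled, mapped and counted per gene by the authors, per the labels' protocols. The sources used here do not name the aligner or counter. For each library the authors deposited counts together with TPM and FPKM. The submitters' processing notes name hg19, but of 57836 genes shared with GENCODE 29 on GRCh38, 55964 (96.8%) had identical coordinates, including 9 of the 10 genes described (not PHGDH). Coordinates are those of the table.

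Counts were filtered with filterByExpr (minimum 10), scaled by TMM and fitted in R 4.3.3 with edgeR 4.0.16, group being the only term. The quasi-likelihood test was adjusted by Benjamini-Hochberg over 19040 genes, at 0.05. CPM are TMM-scaled. Standard errors were taken as the fold change over the root of F, and 95% intervals from the total degrees of freedom of the test (residual plus the prior that edgeR estimates). Ratios of mitochondrial to cytosolic partners in deposited TPM, and of PSAT1 and PSPH to PHGDH in CPM, were compared with exact permutation tests. The 5 p-values were adjusted together. Alternatives used DESeq2 1.42.0 and limma 3.58.1 as well. Within groups, pairs of libraries differed with 29.9 to 74.0 chi-square per degree of freedom, so none were merged. Deviations from the group mean correlated at 0.01, -0.08 and -0.03 between libraries of the same number, so the number was not treated as a pairing.

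The members and lists were chosen with earlier results of these data known. Named genes are the members, list genes past the test (at most 6 a list, otherwise the 2 with the largest change among genes of at least 1 log2 CPM), ratio partners and the 5 genes most correlated with ASNS. Other ATF4 response genes with the promoter core were named after their values were seen. Among epithelial markers the 2 were EGFR and KRT19, with log2 fold changes of 0.19 and -0.18. Promoter sequences are from RefSeq (GRCh38.p14). Figures used matplotlib 3.10.9.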

Additional observations from a re-analysis of the deposited data

How the results depend on the processing

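The TPM fit and the ratios of PSAT1 and PSPH to PHGDH were chosen after seeing the data, and the cause of the shifts was not tested. The log2 fold change of ASNS kept its sign under every alternative run and lost its call without a filter (0.855, adjusted p 0.0504), with the replicate block (0.864, adjusted p 0.1035) and without 1 library (0.76 to 0.959), so that 0 of 10 genes passed in each of these and 1 in the rest. All genes past the test, 223 at first, numbered 147 with no filter, 82 with a stricter filter (where ALDH1L2 was not tested), 634 with DESeq2, 34 with the replicate block, 375 with limma on deposited TPM and 64 to 114 without 1 library. The median of the 10 genes was 0.0568 with library size only (all genes 0.17), 0.136 on deposited TPM (all genes 0.27) and -0.163 to -0.0152 without 1 library. Of the other ATF4 genes 8 passed with library size only, 3 with no filter, 3 with the stricter filter, 8 with DESeq2, 2 with the replicate block, 9 on deposited TPM and 2 to 3 without 1 library.

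Genes whose fold change turned had not passed to begin with and passed in none. With library size only they were PHGDH (0.0102), PSPH (0.0758), MTHFD2 (0.0792) and PCK2 (0.0379). On deposited TPM they were PHGDH (0.0933), PSPH (0.3996), SHMT2 (0.0273), MTHFD2 (0.179), MTHFD1L (0.0398), PCK2 (0.259) and ALDH1L2 (-0.0284). ALDH1L2 was also at -0.03 with DESeq2 size factors, -0.0312 with DESeq2, -0.139 with limma-voom and -0.0945 with the replicate block. Without 1 library PHGDH ran from -0.234 to 0.0023, PSPH from -0.238 to 0.0368, MTHFD2 from -0.128 to 0.0068, PCK2 from -0.237 to 0.108, ALDH1L2 from -0.45 to 0.345 and the log2 ratio of PSPH to PHGDH from -0.246 to 0.282. The ratios of mitochondrial to cytosolic enzymes kept their sign under every setting run, and with the replicate block their exact p was 0.25, the smallest that 3 pairs allow. Of the 10 genes ALDH1L2 alone had under 10 counts in a library, and depth limits its value.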
